A study of Caenorhabditis elegans with 6 samples.

Results

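These results concern 10 transcriptional regulators of mesoderm and coelomocyte fate in Caenorhabditis elegans, chosen by public name and matched to 10 of the 21882 genes of the raw count table. They are the sine oculis family homeobox genes ceh-34 and unc-39, the Eyes absent cofactor gene eya-1, the FoxF gene let-381, the Twist gene hlh-8, the HMX homeobox gene mls-2, the SoxC gene sem-2, and the muscle regulators hlh-1 (MyoD family), unc-120 (serum response factor family) and hnd-1 (HAND family). Their levels were compared between coelomocytes, the scavenger cells of the body cavity, with and without forced expression of CHE-1, the zinc finger factor that specifies the ASE gustatory neurons. The series asks how coelomocytes can be turned directly into cells of another fate.

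Both groups were L3 larvae that carried glp-4(bn2), a temperature-sensitive allele that leaves the animals without a germline at 25°C, and the reporter barIs177, which places GFP under the coelomocyte promoter of unc-122. The control group (strain BAT2087, 3 libraries) carried nothing more. The CHE-1 group (strain BAT2088, 3 libraries) also carried the transgene barIs115. It joins the unc-122 promoter to che-1, a 2xFLAG tag and the unc-54 3' UTR, and it includes myo-2prom::mCherry, which marks the pharynx in red. Each group is 1 strain. GFP-positive cells were sorted from dissociated worms, so the promoter that marks the cells is also the one that drives CHE-1, and each library is a pool of cells from many animals.

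The M mesoblast, a mesodermal precursor that divides after hatching, gives rise to some of the body wall muscles and coelomocytes. It also makes the sex myoblasts that form the egg-laying muscles. The lineage of the sorted coelomocytes was not resolved here. In this lineage MLS-2 and HLH-8 act early, SEM-2 favours the sex myoblast fate, and LET-381 and then CEH-34 with its cofactor EYA-1 direct cells to the coelomocyte fate, with LET-381 a direct activator of ceh-34. HLH-1, UNC-120 and HND-1 act together in making body wall muscle in the embryo.

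Library totals ran from 21353072 to 58325279 counts, with 7006 to 11297 genes detected. The che-1 counts fit the labels, at 3, 0 and 1 in control and 10744, 50917 and 42227 with the transgene. Of 6 coelomocyte markers, 4 were lower in the CHE-1 group, 0 higher and 2 not past the test, against 1.69% lower over all genes tested. These markers cannot check the sort in the CHE-1 group, where fewer coelomocytes in a pool and less transcript per cell cannot be told apart. Their summed level was 15190 to 20730 CPM (counts relative to library size, scaled with TMM factors) in control and 4269 to 6030 CPM in CHE-1 libraries. The channel gene cup-4 was at 3254 to 5057 CPM in control and 1204 to 1510 CPM in CHE-1 libraries. The alpha-mannosidase gene aman-1 fell from 3766 to 6197 CPM in control to 7.839 to 38.07 CPM (log2 fold change -8.16, adjusted p = 0.00672). It missed the threshold when CHE-1 replicate 1 or 2 was dropped (adjusted p = 0.0696 and 0.0562), and likewise with control replicate 1 dropped (0.0856). The marker unc-122 was at 1228 to 1972 and 1212 to 1570 CPM, ranges that overlap (log2 fold change -0.29, adjusted p = 0.741). CHE-1 library 1 is the shallowest library of the series, and its che-1 level of 486.8 CPM lies under the 808.7 and 805.4 CPM of CHE-1 libraries 2 and 3.

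Of the 10 regulators, 1 fell in the CHE-1 group, hlh-8, and 0 rose. Another 5 were tested without passing the threshold, 2 had too few counts to be tested (mls-2 and hlh-1), and 2 had no count in any library (unc-39 and hnd-1). Over all 9112 genes tested, 5.06% were called, 3.37% as higher and 1.69% as lower. Groups of libraries did not overlap for 4 of the 6 tested regulators, lower in the CHE-1 group for ceh-34, eya-1 and hlh-8 and higher for sem-2, against 23.4% of all genes tested (10.3% lower and 13.0% higher). DESeq2 gave an adjusted p to 7 of the 10 and called 2 of these lower and 0 higher, against 4.36% and 7.26% of all genes with an adjusted p (11.6% in all). An unadjusted p under 0.05 in edgeR was given to 5 of the 6, all lower in the CHE-1 group, against 14.2% of all genes tested (5.71% lower). The median log2 fold change of the 6 was -1.36, against 0.04 over all genes tested. In a sorted population, fewer cells that carry a transcript and less of it per cell cannot be told apart.

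**Figure D1:**
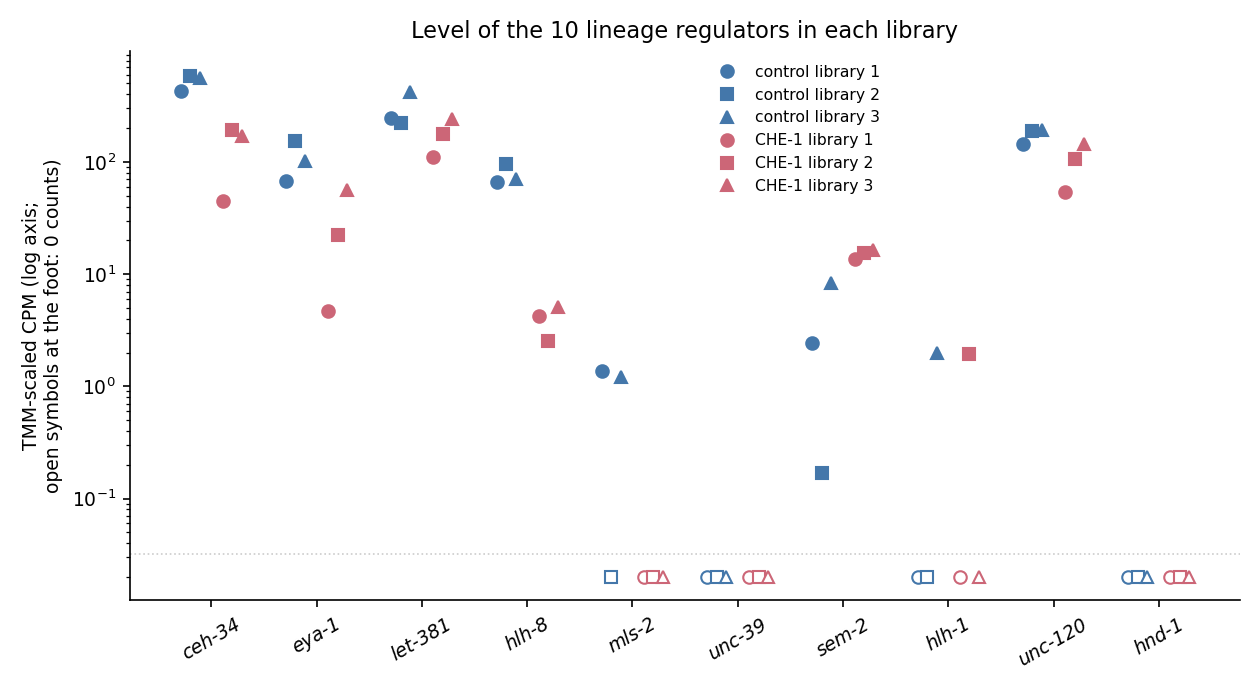
Level of each of the 10 regulators in each of the 6 libraries, as TMM-scaled CPM on a log axis, with control libraries in blue and CHE-1 libraries in red and open symbols at the foot for libraries with 0 counts. The hlh-8 values of the control libraries (65.78 to 95.56 CPM) stand well above those of the CHE-1 libraries (2.557 to 5.055 CPM), while the ranges of let-381 and unc-120 overlap.

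The regulators spanned a wide range of levels in control coelomocytes. Compared per kb of merged exon, ceh-34 was the most abundant at 472.6 ± 73.3 CPM per kb (SD, n = 3). This placed it above 98.3% of the 12863 genes with a count and an annotated exon length. The next was let-381 at 235.0 ± 85.9 CPM per kb, above 97.1% of those genes. Within every control library ceh-34 exceeded let-381, by 1.99, 3.00 and 1.50 times. After these, unc-120 stood at 145.6 ± 22.2 CPM per kb, and its range of 120.1 to 160.5 CPM per kb lay below the 175.7 to 333.5 of let-381. The level of hlh-8 was 87.84 ± 18.2 CPM per kb and that of eya-1 was 57.85 ± 23.7 CPM per kb. These neighbours overlapped, at 74.75 to 108.6 against 36.12 to 83.04 CPM per kb. All other regulators stood at a mean of at most 1.748 CPM per kb in control, led by sem-2.

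In the CHE-1 libraries the order of these levels was different. The highest mean belonged to let-381, at 140.1 ± 51.3 CPM per kb, followed by ceh-34 at 123.1 ± 72.5 and unc-120 at 84.53 ± 38.0, and the ranges of these 3 genes overlapped one another. The level of eya-1 was 14.92 ± 14.0 CPM per kb, that of sem-2 7.225 ± 0.695 and that of hlh-8 4.479 ± 1.44. The sem-2 range (6.485 to 7.864 CPM per kb) lay above that of hlh-8 (2.906 to 5.744), the reverse of the control libraries. In control, hlh-8 was above 93.0% of genes with a count and an annotated exon length by its level per kb. In the CHE-1 group it was above 48.0%.

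Among the coelomocyte fate regulators, let-381, the FoxF gene at the head of the pathway (WBGene00002601, chromosome I, 6320289 to 6324019, minus strand, WBcel235), had counts of 12574, 5281 and 22574 in control and of 2455, 11220 and 12613 in CHE-1 libraries. Scaled to library size, these are 246.9, 221.5 and 420.6 CPM against 111.2, 178.2 and 240.6 CPM. CHE-1 library 3 lay within the control range, above control library 2, so the groups overlap. The log2 fold change was -0.75 (SE 0.33, 95% interval -1.47 to -0.02, adjusted p = 0.327), which did not pass the test. A stretch of 76 bases, 6.03% of the exon length of let-381, overlaps exons of hrpk-1 on the opposite strand. Libraries were strand-specific per the series' design text, but no source used here states whether the counting used the strand. The mean level of hrpk-1 was 145.5 ± 19.5 CPM in control against 147.8 ± 5.71 CPM (log2 fold change 0.02).

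The gene ceh-34, the sine oculis family gene that LET-381 activates (WBGene00000455, chromosome V, 5315496 to 5319577, minus strand), had 22002, 13940 and 29902 counts in control and 984, 12178 and 9008 in CHE-1 libraries. Its levels were 432.0, 584.8 and 557.1 CPM against 44.59, 193.4 and 171.8 CPM. Every CHE-1 library was below every control library, and CHE-1 library 1 stood far below the other two. The ratio of the means was 3.84 and the log2 fold change -1.94 (SE 0.50, 95% interval -3.12 to -0.76), with an adjusted p of 0.0882 that missed the threshold. Without CHE-1 library 1 the log2 fold change was smaller, -1.52, and past the threshold (adjusted p = 0.00174). DESeq2 (adjusted p = 0.000407) and limma-voom (7.13e-05) called the gene lower with all 6 libraries. The gene C10G8.2, whose exons share 94 bases with ceh-34 on the opposite strand, had no count in any library.

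The gene eya-1, which encodes the transcriptional cofactor that works with sine oculis family proteins (WBGene00001377, chromosome I, 14220693 to 14231360, minus strand), had 3423, 3684 and 5432 counts in control and 104, 1416 and 2940 in CHE-1 libraries. Its levels were 67.21, 154.5 and 101.2 CPM against 4.712, 22.49 and 56.08 CPM. The groups did not overlap, but the highest CHE-1 library came close to the lowest control library, and the 3 CHE-1 libraries spread over a wider fold range than the control libraries. The log2 fold change of -1.95 had nearly the size of that of ceh-34 with a larger error (SE 0.81, 95% interval -3.86 to -0.05, adjusted p = 0.331). Limma-voom (adjusted p = 0.0388) called the gene lower and DESeq2 did not.

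CHE-1 library 1 was the lowest of its group for let-381, ceh-34, eya-1 and unc-120. It also had the lowest summed level of coelomocyte markers, at 4269 CPM against 5123 and 6030 CPM in CHE-1 libraries 2 and 3. The part of depth, che-1 level or marker level in the spread of these regulators was not tested. Counted per 1000 unc-122 counts, which does not depend on library scaling, ceh-34 was at 239, 476 and 282 in control and 34.4, 160 and 109 in CHE-1 libraries. On the same scale eya-1 was at 37.2, 126 and 51.3 against 3.63, 18.5 and 35.7, and let-381 at 137, 180 and 213 against 85.7, 147 and 153. The groups remained apart for ceh-34 and eya-1 on this scale and overlapped for let-381. The scale rests on unc-122 alone, whose own ranges overlapped. For the other coelomocyte markers, the ratio of control to CHE-1 means was 3.07 (cup-4), 3.43 (cubn-1), 2.9 (lgc-26), 1.29 (cup-5) and 286 (aman-1). It was 3.84 for ceh-34 and 3.88 for eya-1. Levels of the regulators per count of those other markers were not computed, so a fall relative to coelomocyte content was not tested.

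**Figure D2:**
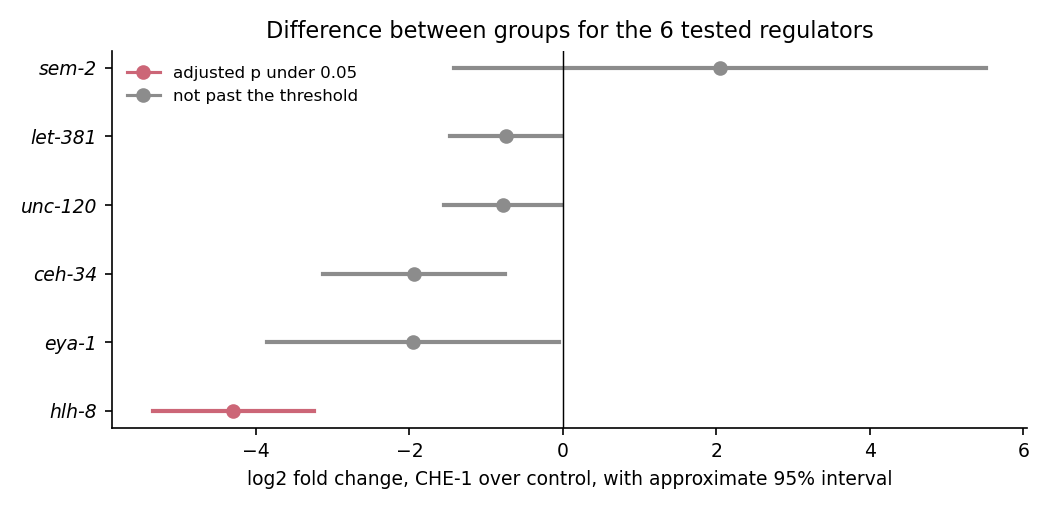
Log2 fold change of the 6 tested regulators, CHE-1 over control, with approximate 95% intervals; red marks the gene past the threshold and grey the others. The interval of hlh-8 (-5.34 to -3.25) lies below that of every other regulator except for overlap with eya-1 (-3.86 to -0.05), and sem-2 has the widest interval (-1.42 to 5.51).

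The early M lineage regulators had the one call. The Twist gene hlh-8 (WBGene00001953, chromosome X, 8116457 to 8120351, plus strand) had 3350, 2278 and 3787 counts in control and 93, 161 and 265 in CHE-1 libraries. Its levels were 65.78, 95.56 and 70.56 CPM against 4.214, 2.557 and 5.055 CPM. The groups stand well apart, and the libraries within each group lie close together, CHE-1 library 1 included. The gene fell with a ratio of means of 19.6 and a log2 fold change of -4.29 (SE 0.47, 95% interval -5.34 to -3.25, adjusted p = 0.000232), and by its p-value it was number 83 of the 9112 genes tested. Per 1000 unc-122 counts it was at 36.4, 77.8 and 35.8 in control and 3.25, 2.11 and 3.22 in CHE-1 libraries. Exons of C02B8.12 share 38 bases with it on the opposite strand, and that gene averaged 1.484 ± 2.18 CPM in control against 0.349 ± 0.605 CPM.

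The homeobox gene mls-2, known as an activator of hlh-8 in the M lineage (WBGene00003377, chromosome X), had 70, 0 and 65 counts in control and none in the CHE-1 libraries. It is listed at 0 in control library 2 too, so the groups overlap, and it did not enter the test. Its control mean was 0.862 ± 0.751 CPM, and the floor of 3 counts per library is a mean of 0.0803 CPM in the CHE-1 group. With control library 2 at 0 as well, no bound on a fold difference follows. DESeq2 did not call the gene (adjusted p = 0.237). The SoxC gene sem-2 (WBGene00004771, chromosome I) had 125, 4 and 451 counts in control and 301, 970 and 867 in CHE-1 libraries, or 2.454, 0.168 and 8.403 CPM against 13.64, 15.41 and 16.54 CPM. The CHE-1 libraries lay close together and above all control libraries, which differed widely among themselves. The log2 fold change of 2.05 did not pass (SE 1.57, 95% interval -1.42 to 5.51, adjusted p = 0.808), and it was 3.48 without control library 3 and 1.41 without control library 2. The sine oculis family gene unc-39, which acts in mesoderm and head development, had 0 counts in all 6 libraries, which allows at most 0.0476 to 0.136 CPM by library.

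Known targets of HLH-8 and its partner gave further values. Of 3 listed target genes, 1 was lower, 0 were higher, 1 did not pass and 1 had no count. Over all genes tested, 1.69% were called lower. The list was chosen with earlier results of these data known, and its 1 call is no result about the targets as a set. The FGF receptor gene egl-15, which acts in sex myoblast migration, fell from 74.26, 71.44 and 59.53 CPM to 0.498, 7.846 and 7.858 CPM (log2 fold change -3.66, SE 0.85, adjusted p = 0.0404). Its groups stand apart in every library, but it missed the threshold when any 1 control library was left out (adjusted p = 0.0557, 0.0796 and 0.0721 without library 1, 2 and 3), when CHE-1 library 2 or 3 was (0.143 and 0.167), and with limma-voom (0.096). The homeobox gene ceh-24, which is active in vulval muscles, was at 2.867, 0 and 0.950 CPM against 0, 0 and 4.768 CPM, with no direction that held across libraries. The Notch ligand gene arg-1, which marks the head mesodermal cell and enteric muscles, had 0 counts in every library. The gene hlh-2, whose product is the dimer partner of HLH-8 and of other bHLH factors, was looked at after its values were seen. It was at 11.43, 10.91 and 6.391 CPM in control and 0, 3.065 and 0 CPM in CHE-1 libraries, without overlap and without passing (adjusted p = 0.870).

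**Figure D3:**
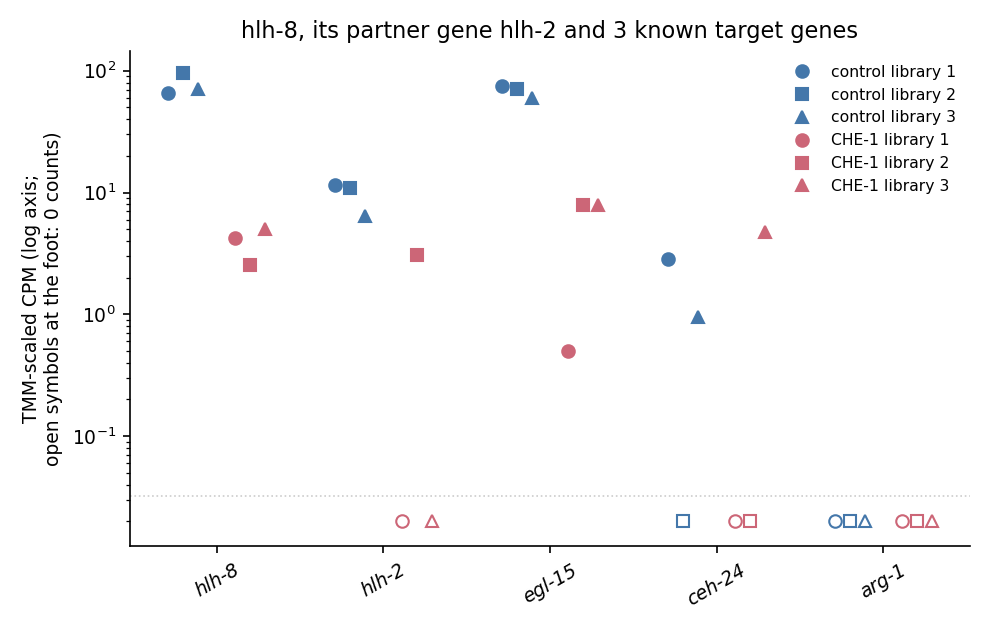
TMM-scaled CPM (log axis) of hlh-8, its partner gene hlh-2 and the targets egl-15, ceh-24 and arg-1 in each library, control in blue and CHE-1 in red, with open symbols at the foot for 0 counts. The control libraries lie above the CHE-1 libraries for hlh-8, hlh-2 and egl-15, ceh-24 shows no such order, and arg-1 is at 0 throughout.

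The muscle regulators were unequal. The gene unc-120, the serum response factor homologue (WBGene00006844, chromosome I, 8460225 to 8463015, plus strand), had 7383, 4494 and 10398 counts in control and 1188, 6734 and 7617 in CHE-1 libraries. Its levels were 145.0, 188.5 and 193.7 CPM against 53.83, 107.0 and 145.3 CPM. The highest CHE-1 library just reached the lowest control library, so the groups meet, and the log2 fold change of -0.78 did not pass (SE 0.35, 95% interval -1.55 to -0.02, adjusted p = 0.327). Without CHE-1 library 1 it was -0.48. The MyoD gene hlh-1 (WBGene00001948, chromosome II) had 106 counts in control library 3, 123 in CHE-1 library 2 and none in the other four, or 1.975 and 1.954 CPM where it was seen. The HAND gene hnd-1 (WBGene00001981, chromosome X) had 0 counts in all libraries, with the same limits as unc-39.

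These values stand beside those of 31 body wall muscle genes, all of which were tested. Of these, 7 rose, 1 fell and 23 did not pass the test, with a median log2 fold change of 0.64. Over all genes tested, 3.37% were called higher and 1.69% lower. Their summed level was 41170 to 42870 CPM in control and 25580 to 33650 CPM in CHE-1 libraries, and most of it was the myosin gene unc-54, the 1 lower gene, at 34910 to 37110 CPM against 15170 to 22780 CPM. The sum therefore mostly follows unc-54 and says little of the other genes. The unc-54 3' UTR is part of the CHE-1 transgene, which the control libraries lack. The 3' UTR of the GFP reporter, carried by both groups, is not given here. Gene-level counts do not separate reads of such constructs from those of the muscle gene. The myosin gene myo-3 was at 59.38 to 120.8 CPM in control and 72.52 to 231.7 CPM in CHE-1 libraries. The gene unc-15 was at 291.4 to 428.8 against 341.7 to 826.6 CPM, and neither passed. The actin gene act-4 was at 2406 to 3122 CPM against 3016 to 3529 CPM and did not pass (adjusted p = 0.581). Chosen after the values were seen, the 4 called genes with the largest absolute changes were the integrin alpha gene pat-2 (log2 fold change 4.14), the calcium channel gene egl-19 (2.67), the troponin T gene mup-2 (2.63) and the attachment gene unc-95 (1.98). The gene pat-2 rose from 37.03, 10.49 and 17.33 CPM to 475.6, 317.0 and 355.2 CPM. With the shallowest library of both groups left out, unc-95 and the integrin beta gene pat-3 were no longer past the threshold (adjusted p = 0.0674 and 0.0710). Of the muscle regulators, unc-120 alone had enough counts to be tested beside these genes.

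A wider set of mesoderm regulators was read in the same way. Of its 20 genes, 15 had a count and 13 were tested, with 1 higher, 0 lower and 12 not past the threshold (median log2 fold change 0.10). With 5.06% called over all genes tested, this count is no result about the set. The TALE homeobox gene unc-62, a Meis homologue that acts with Hox factors, rose from 35.19, 30.71 and 24.59 CPM to 134.5, 79.11 and 152.3 CPM (log2 fold change 2.02, SE 0.35, adjusted p = 0.00519). All 3 CHE-1 libraries stood above the control libraries, and the gene missed the threshold with the shallowest library of both groups left out (adjusted p = 0.0578). The Schnurri homologue sma-9, a BMP pathway regulator of M lineage fate, was at 205.4 to 375.8 CPM against 272.6 to 338.3 CPM. The Pbx homologue ceh-20, whose product pairs with Hox factors, was at 46.85, 35.36 and 37.97 CPM against 109.8, 72.24 and 56.63 CPM, without overlap (log2 fold change 0.99, adjusted p = 0.194).

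Ratios between regulators within a library do not depend on how libraries are scaled. Among the 5 most abundant regulators 10 pairs were compared per kb of exon, and in 7 of them the control and CHE-1 libraries did not overlap. The pairs share genes, with hlh-8 in 3 of the 7, and single genes did not overlap in 23.4% of those tested. No such share was computed for other pairs of genes. With 3 libraries against 3 the exact permutation test, two-sided, cannot go below p = 0.10, which these 7 reached (0.143 adjusted over the 10 pairs). The ratio of ceh-34 to its activator let-381 was 1.99, 3.00 and 1.50 in control and 0.455, 1.23 and 0.811 in CHE-1 libraries, a mean log2 difference of -1.43. The ratio of let-381 to hlh-8 was 2.62, 1.62 and 4.16 in control and 18.4, 48.6 and 33.2 in CHE-1 libraries, the largest of the 10 mean log2 differences at 3.57. The ratio of let-381 to unc-120 overlapped, at 1.63, 1.12 and 2.08 against 1.98, 1.59 and 1.58. That of ceh-34 to eya-1 overlapped as well, at 10.8, 6.34 and 9.23 against 15.9, 14.4 and 5.14.

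**Figure D4:**
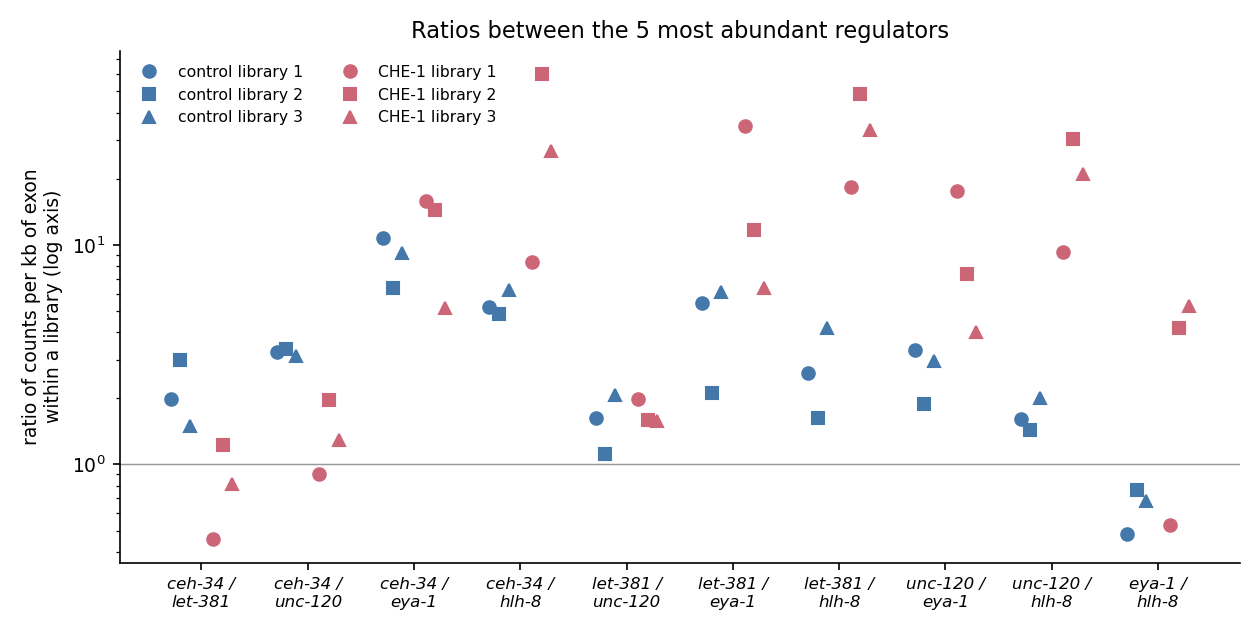
Ratio of counts per kb of merged exon within each library, on a log axis, for the 10 pairs of the 5 most abundant regulators, control libraries in blue and CHE-1 libraries in red. Ratios over hlh-8 are higher in the CHE-1 libraries for ceh-34, let-381 and unc-120, ceh-34 over let-381 is lower, and let-381 over unc-120 and ceh-34 over eya-1 overlap.

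The genes whose log2 CPM followed that of ceh-34 most closely over the 6 libraries were T02C5.1 (Pearson r 0.998), the nucleoporin gene npp-11 (0.995) and the DnaJ gene dnj-5 (0.995). T02C5.1 was at 80.13, 188.6 and 128.2 CPM in control and 0, 8.100 and 4.444 CPM in CHE-1 libraries. By this likeness eya-1 was number 101 (0.951) and unc-120 number 109 (0.948) of 9111 genes, let-381 number 842 (0.832), hlh-8 number 933 (0.818) and sem-2 number 7738 (-0.612). A value of at least 0.9 was reached by 333 genes, 3.65% of those ranked. With 6 libraries in 2 groups these values describe a likeness and carry no test.

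Markers of other cell types were summed in the same way. Of 8 pharyngeal muscle genes, 6 were tested and 0 called by edgeR, with 1 at an unadjusted p under 0.05 and 2 called lower by DESeq2. Their sum was 71.27 to 576.7 CPM in control and 28.48 to 111.1 CPM in CHE-1 libraries, most of it myo-2 and myo-1. By library the sum was 576.7, 71.27 and 163.6 CPM in control and 104, 111.1 and 28.48 CPM in CHE-1 libraries. Beside it, ceh-34 was at 432, 584.8 and 557.1 CPM in control and 44.59, 193.4 and 171.8 CPM in CHE-1 libraries. Within control, ceh-34 was highest where the sum was lowest. Between groups, both means were lower with CHE-1, at 270.5 and 81.2 CPM for the sum and 524.6 and 136.6 CPM for ceh-34. Of 12 neuronal genes 8 were higher and 1 lower, and their sum was 746.1 to 900.7 CPM in control and 6404 to 7384 CPM in CHE-1 libraries. The convertase gene egl-3 was at 28.02 to 82.61 CPM in control against 1754 to 2075 CPM, and ida-1 at 46.43 to 50.58 CPM against 919.3 to 1241 CPM. The 1 lower neuronal gene was rgef-1, at 215.5 to 257.1 CPM against 69.87 to 114.4 CPM (adjusted p = 0.00677). The neuronal genes snb-1, unc-64 and unc-31 did not pass (log2 fold change 0.29, 0.39 and 5.25). Of the intestinal, epidermal and germline lists (10, 12 and 10 genes), 0 genes were called by edgeR, with 1 at an unadjusted p under 0.05 in each list, and DESeq2 called 0, 0 and 1. Their sums were 234.0 to 336.4, 417.5 to 724.5 and 32.49 to 46.95 CPM in control and 215.9 to 902.6, 442.0 to 591.0 and 33.40 to 61.15 CPM in CHE-1 libraries. The intestinal genes asp-1 and act-5 were at 164.3 to 232.7 and 42.16 to 63.33 CPM in control and at 143.0 to 691.3 and 52.43 to 147.6 CPM in CHE-1 libraries. Without CHE-1 library 1 both were past the threshold (adjusted p = 0.00308 and 0.0209). The epidermal genes col-10 and ajm-1 were at 122.9 to 386.4 and 48.01 to 84.86 CPM in control and at 141.2 to 238.6 and 83.10 to 182.3 CPM in CHE-1 libraries. The germline genes glh-1 and gld-1 stayed at or under 22.06 CPM in all libraries. The epidermal gene bli-1 and the germline genes nos-2 and him-3 had no count in any library. Which of the sorted cells the neuronal transcripts came from was not tested, nor was the part of cells of other types in the values of the regulators.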

How the data were processed

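Polyadenylated RNA of sorted coelomocytes was measured in 6 libraries, 3 per group. The authors' deposited raw table holds an estimated count per gene, already rounded to whole numbers. Per the submitters' processing notes, the build was WBcel235 and the tools included DESeq2 and Salmon 0.13.1, with no role stated. No source used here says how transcripts were combined into genes. The authors' deposited normalized table holds a signal that its values show to be the raw count over a constant of each library. It lists 12808 of 21882 genes and 8 of the 10 regulators, and was used only for that check. Identifiers were matched by public name, and loci and merged exon lengths came from the Ensembl release 115 annotation of WBcel235.

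The groups were compared over the whole table with edgeR 4.0.16 in R 4.3.3 (quasi-likelihood test, two-sided, robust, TMM factors, minimum count 10 and minimum total 15). Benjamini-Hochberg adjustment ran over all 9112 genes tested, with calls at an adjusted p under 0.05. Unless another tool is named, every adjusted p comes from this test. Levels are TMM-scaled CPM, with mean ± SD of 3 libraries. The SE is the absolute log2 fold change divided by the square root of F, and 95% intervals built from it are approximate. For a gene without counts the floor is 3 counts per library. The floor covers counting error only, because PCR copies are not independent molecules. Ratios between regulators were compared with exact permutation tests. Alternatives were other scalings, no count filter, DESeq2 1.42.0, limma-voom (limma 3.58.1), adjusted deviances, leaving out libraries and, chosen after seeing the data, a replicate block. Whether libraries share a culture or a sort is not in the labels, and p-values therefore reflect only the spread of these samples, possibly a technical one.

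The regulators and lists were chosen with earlier results of these data known. The rule named all 10 regulators, che-1 and unc-122. Of the mesoderm regulator and HLH-8 target lists it named called genes (at most 4 by fold change) and the 2 uncalled tested genes of highest mean CPM. Of each cell type list it named the 2 genes of highest mean CPM, and it named the 3 genes most like ceh-34. Other genes named were chosen after their values were seen or share exons with a regulator. Promoters were not examined here.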

Additional observations from a re-analysis of the deposited data

How the results depend on the processing

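Over 14 alternatives the 6 tested regulators gave 84 log2 fold changes, of which 74 kept direction and side of the threshold, 10 came past it and 0 turned direction. The call of hlh-8 held in all 14 (log2 fold change -4.52 to -4.06, adjusted p up to 0.0286). The 10 were ceh-34 with the replicate block (-2.18), no count filter (-1.94), DESeq2 (-1.96), limma-voom (-1.92), adjusted deviances (-1.83), without CHE-1 library 1 (-1.52) and with the shallowest library of both groups left out (-1.50), and eya-1 with no count filter (-1.95), limma-voom (-1.78) and adjusted deviances (-1.70). Leaving out 1 library at a time gave -2.28 to -1.52 for ceh-34. The number of regulators called lower was 1, and 3 with no count filter, limma-voom or adjusted deviances, 2 with DESeq2, the replicate block or without the shallowest libraries, and 1 to 2 with 1 library left out. Over all genes, 307 were higher and 154 lower, 474 and 255 with no count filter, 690 and 414 with DESeq2, 461 and 267 with limma-voom and 695 and 354 with adjusted deviances; the cause was not tested. Upper-quartile scaling moved the median of all genes by -0.136 (log2).

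Among uncalled genes, sma-9 turned direction with upper-quartile scaling (-0.04) and without control library 3 (-0.13), ceh-24 with limma-voom (-2.18), the replicate block (-1.09), without control library 2 (-0.33) and without CHE-1 library 3 (-8.77), and hrpk-1 with upper-quartile scaling (-0.11), without control library 1 (-0.13), and without CHE-1 library 1 or the shallowest libraries (-0.01 each). So did col-10 without control library 1 (0.06), glh-1 without control library 2 (-0.25) or CHE-1 library 2 (-0.13), and gld-1 with upper-quartile scaling (-0.08) and without control library 1 (-0.24), control library 3 (-0.21) or CHE-1 library 3 (-0.51). With 1 library left out the 6 genes ran, in this order, from -0.13 to 0.25, -8.77 to 1.63, -0.13 to 0.04, -0.78 to 0.06, -0.25 to 0.53 and -0.51 to 0.73. The library codes in the labels form neighbouring pairs across the groups, but nothing there says that neighbours share a culture, sort or day. Their deviations from the group means correlated at only -0.07 to 0.04, and 1 control and 2 CHE-1 libraries correlated best with their neighbour. A replicate block by these codes, chosen after seeing the data, called 364 genes higher and 205 lower, ceh-34 among the latter (adjusted p = 0.0393), while egl-15 (0.0694) and aman-1 (0.0903) missed the threshold. The genes hlh-1, mls-2, unc-39 and hnd-1 had too few counts for a test. Control libraries 1 and 3, with totals of 57851993 and 58325279 counts, held 0 and 106 counts of hlh-1. For these 4 genes, a transcript missed in a library and one absent from its cells cannot be told apart.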
